A study of Sus scrofa with 24 samples.

Results

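Neurotrophins and their receptors were examined in the hippocampus of the piglet. The set was 8 pig gene symbols, namely the ligands BDNF and NTF3, the Trk receptors NTRK2 and NTRK3, the low-affinity receptor NGFR, the sorting receptor SORT1, and the co-receptors GFRA1 and GFRA2. A gene was a member when its Entrez identifier in the count tables carried one of these symbols. No measured value entered this matching, although the symbols were chosen with earlier results of these data known. Of the 38882 genes listed, 9 loci were found, because GFRA2 is annotated at 2 loci. Of the 9 loci, 8 passed the filter on low counts, 1 CPM (counts scaled to the TMM library size) in 3 or more libraries, and were tested among 16326 genes. NGFR did not.

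Neurotrophins are secreted growth factors that are made as precursors and cleaved to mature ligands. Mature BDNF signals through TrkB, the product of NTRK2, and NT-3, the product of NTF3, signals mainly through TrkC, the product of NTRK3. The precursors bind p75NTR, the product of NGFR, together with sortilin, the product of SORT1. GFRA1 and GFRA2 bind ligands of the GDNF family and present them to the RET kinase. In the hippocampus BDNF and TrkB are known for their part in synaptic plasticity, and NT-3 is known for its expression in dentate granule cells.

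The 24 libraries came from bulk hippocampal tissue of individually housed pigs, a cross of PIC Camborough dams with PIC 359 sires, collected on postnatal day 14, with 6 piglets in each of 4 groups. Piglets were small (SGA) or appropriate (AGA) for gestational age, and received from shortly after birth a control formula with triglyceride fat (CON) or a formula with hydrolyzed fat (HF). SGA piglets were paired by litter with a sex-matched AGA piglet fed the same formula, which made 12 litters, 6 per formula. Whether different litters shared a sow is not stated. Litters were studied in 2 cohorts (replicates 1 to 3 and 4 to 6 of each group), with 12 male and 12 female piglets in all. Diet was given to whole pairs, so diet was compared between litters and size within them. SGA status arose naturally, and all groups were formula fed.

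Reads counted on the listed genes ranged from 6017336 to 9284355 per library (median 7346073), so that 3 counts, taken as the limit of detection, corresponded to 0.323 to 0.499 CPM. Intervals and limits of this kind cover counting error only. Of 9 dentate granule and CA pyramidal markers with a locus, 8 were detected, among them PROX1 at a mean of 48.2 CPM and RGS14 at 312 CPM, with CALB1 at 0.604 CPM and TDO2 at 0 in all 24 libraries. AGA CON replicate 2 and AGA HF replicate 4 stood apart in the summed level of 6 neuronal markers, at 3201 and 4086 CPM against 5445 to 8177 CPM in the other 22 libraries.

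All coordinates are those of the Sscrofa10.2 gene models in the count tables. BDNF (397495) lay on chromosome 2 at 35206996 to 35265002 on the plus strand, with 5110 bases of exon. NTF3 (100144493) was a single exon of 774 bases on chromosome 5 at 67204186 to 67204959, within the span of a predicted gene on the same strand. NTRK2 (100519209) lay on chromosome 10 at 34211939 to 34350822 with 13 exon entries, and NTRK3 (397511) on chromosome 1 at 212938371 to 213258768 with 20. NGFR (100525607) was on chromosome 12 at 25702140 to 25722387, and SORT1 (106504120) on chromosome 4 at 121230024 to 121289561. GFRA1 (100152565) was on the minus strand of chromosome 14 at 137525348 to 137748038. The GFRA2 loci were 100157850 at 4012238 to 4083771 on the plus strand of chromosome 14 and 102166950 at 6064432 to 6135705 on its minus strand. These loci may share reads, and reads that aligned to several places were not counted, so both GFRA2 values are uncertain.

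Exon length was a multiple of 3 at 6 of the 9 loci, against 36.8% of all listed genes. The models of BDNF, SORT1 and GFRA1 were the exceptions. Length alone does not show which models lack untranslated regions or part of the coding sequence, and this was not tested. Levels per length therefore depend on these models. Gene-level counts also do not separate full-length TrkB from its truncated form, or the alternative first exons of BDNF.

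Compared per kilobase (kb) of exon, SORT1, NTRK3 and NTF3 had the highest levels and NGFR the lowest. The mean over 24 libraries was 13.6 ± 3.00 CPM per kb (SD) for SORT1, 13.3 ± 3.10 for NTRK3 and 11.7 ± 3.11 for NTF3. The GFRA2 locus 102166950 followed at 8.32 ± 2.14 CPM per kb, then NTRK2 at 6.38 ± 3.25, GFRA1 at 6.37 ± 1.12 and BDNF at 4.35 ± 0.795. The GFRA2 locus 100157850 had 2.40 ± 0.583 CPM per kb and NGFR 0.311 ± 0.305. Neighbours among the first 3 differed by less than their spread over libraries, as did the GFRA2 locus 102166950 and NTRK2, and NTRK2 and GFRA1. Among the tested genes, the level of SORT1 lay at the 67.8th percentile and that of BDNF at the 45.6th.

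**Figure D1:**
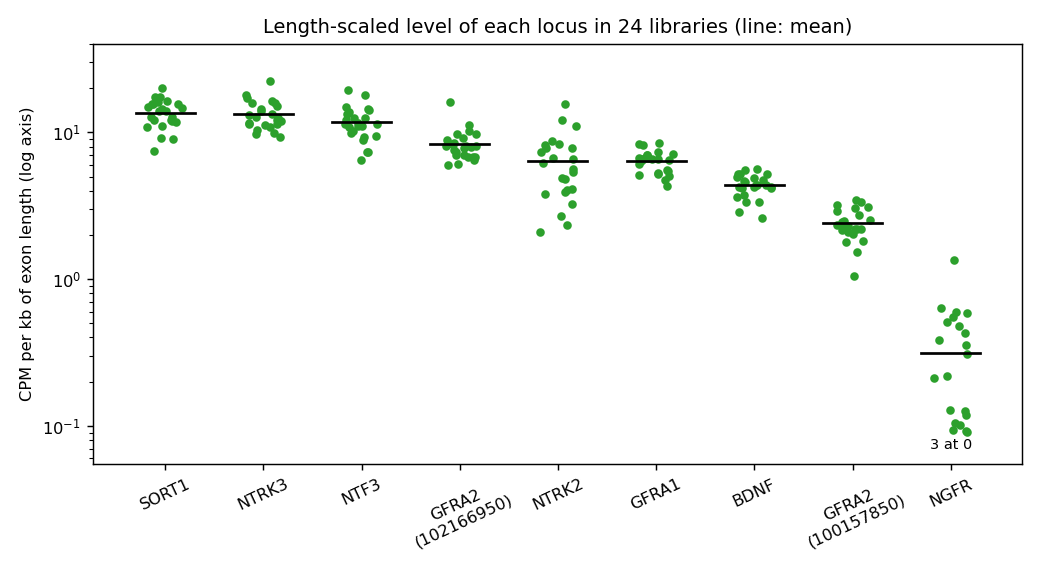
Level of each locus in CPM per kb of exon length (log axis) in the 24 libraries, ordered by mean. SORT1, NTRK3 and NTF3 overlap at the top with means of 13.6, 13.3 and 11.7, and NGFR lies far below at 0.311 with 3 libraries at 0.

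NTRK3 exceeded NTRK2 in 24 of 24 libraries both per kb, with a ratio of 1.42 to 5.42 (median 2.18), and in CPM. Exons missing from either model, of 2241 bases (NTRK3) and 1680 bases (NTRK2), would alter both scales, and this was not tested. BDNF was below NTF3 per kb in 24 of 24 libraries, at 0.187 to 0.602 of its level (median 0.387), but above it in CPM in 24 of 24, so this order rests on the model lengths of 5110 and 774 bases. The GFRA2 locus 102166950 exceeded 100157850 in 24 of 24 libraries on both scales. GFRA1 was above the GFRA2 locus 102166950 per kb in 4 of 24 libraries and in CPM in 24 of 24, so this order too rests on the lengths.

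Of the ligands, BDNF was read at 22.2 ± 4.06 CPM over all libraries (89 to 220 counts). In AGA CON piglets it ranged from 13.4 to 26.7 CPM (median 24.1), in AGA HF from 14.6 to 28.8 (median 22.9), in SGA CON from 18.4 to 26.4 (median 22.2) and in SGA HF from 17.1 to 28.4 (median 21.4). The lowest values were those of AGA CON replicate 2 and AGA HF replicate 4, the libraries with the lowest neuronal marker sums, and the 4 groups overlapped.

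NTF3 was read at 9.08 ± 2.41 CPM (37 to 116 counts). It ranged from 5.72 to 15.0 CPM (median 8.89) in AGA CON, 5.01 to 13.9 (median 8.21) in AGA HF, 6.81 to 10.7 (median 8.75) in SGA CON and 5.70 to 11.6 (median 9.58) in SGA HF. The groups overlapped throughout, and the SD was 1.31 CPM in SGA CON against 3.20 in AGA CON, a difference in spread that was not tested.

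NTRK2 varied most among the tested loci. Its level was 4.53 to 20.3 CPM (median 10.1) in AGA CON, 3.52 to 14.6 (median 9.61) in AGA HF, 3.94 to 18.4 (median 8.75) in SGA CON and 6.61 to 26.2 (median 10.7) in SGA HF. The range over all libraries was 7.43-fold, and the coefficient of variation of 51.0% was at the 97.7th percentile of 2401 genes of like level, whose median was 18.8%. In every group the highest library had at least 3.96 times the lowest. Littermates did not share their deviations from the group mean (r -0.036 over 12 pairs), and the widest pair was litter 2, with 18.4 CPM in the SGA and 4.53 CPM in the AGA piglet.

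NTRK3 was read at 29.9 ± 6.95 CPM. It ranged from 23.1 to 38.5 CPM (median 28.5) in AGA CON, 20.9 to 35.4 (median 26.2) in AGA HF, 21.9 to 36.8 (median 31.1) in SGA CON and 25.8 to 50.0 (median 28.3) in SGA HF. The highest value of both Trk receptors was in SGA HF replicate 1, and the groups overlapped for both.

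NGFR was at or near the limit of detection. It had 0 to 15 counts per library, 74 in all, and was at 0 in 3 libraries. The range was 0.116 to 0.700 CPM (median 0.142) in AGA CON, 0 to 0.813 (median 0.276) in AGA HF, 0.164 to 1.73 (median 0.571) in SGA CON and 0 to 0.746 (median 0.198) in SGA HF. Fitted without the filter, NGFR had a log2 fold change of 1.61 ± 0.76 (SE) for SGA against AGA on CON (edgeR unadjusted p = 0.0437, adjusted p = 0.738), and the SGA piglet was higher in 5 of 6 CON and 3 of 6 HF litters. Of these CON litters, litter 4 had 1 count in each piglet, so its order rests on library size. SGA CON replicate 3 alone had 15 counts. At these counts the fitted difference on CON was not called. Basal forebrain cholinergic neurons are known for high p75NTR. Of their 5 markers, LHX8 was at 0 in all libraries, CHAT, ISL1 and SLC5A7 reached at most 0.273, 0.107 and 0.774 CPM, and SLC18A3 was at 2.59 to 9.27 CPM.

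SORT1 was read at 26.1 ± 5.75 CPM. It ranged from 17.2 to 33.4 CPM (median 25.6) in AGA CON, 17.5 to 38.6 (median 25.4) in AGA HF, 14.2 to 31.2 (median 25.7) in SGA CON and 21.3 to 33.4 (median 27.7) in SGA HF, with overlap of all groups.

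GFRA1 was read at 36.3 ± 6.37 CPM. It ranged from 30.0 to 40.5 CPM (median 38.2) in AGA CON, 29.4 to 48.3 (median 42.4) in AGA HF, 26.8 to 39.9 (median 37.3) in SGA CON and 24.6 to 42.0 (median 30.8) in SGA HF. The 3 highest libraries were all AGA HF and the 3 lowest were SGA HF or SGA CON, although the groups overlapped. The GFRA2 locus 102166950 ranged from 13.7 to 37.1 CPM over all libraries and 100157850 from 3.11 to 10.3 CPM. Their group medians lay between 16.8 and 19.7 CPM and between 6.64 and 8.36 CPM.

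**Figure D2:**
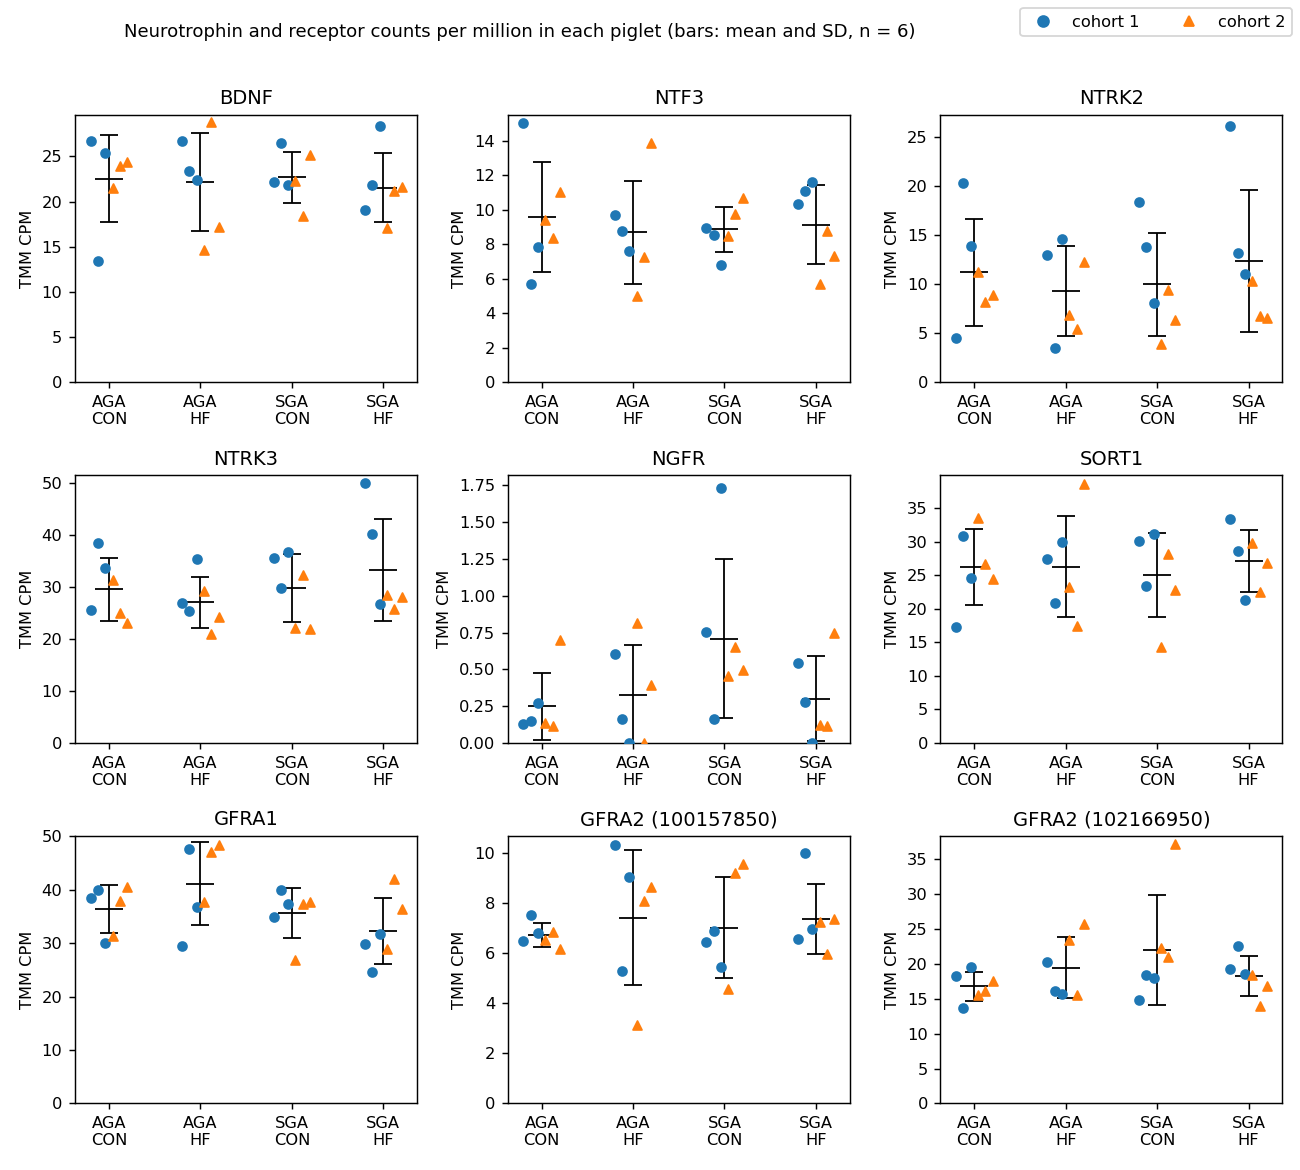
TMM CPM of each locus in each piglet by group, with circles for cohort 1 and triangles for cohort 2 (bars show mean and SD, n = 6). The groups overlap in every panel, NTRK2 spreads from 3.52 to 26.2 CPM, and in each group the highest NTRK3 value is from cohort 1.

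To ask whether birth size or formula changed these genes, counts were tested by the edgeR quasi-likelihood method on the 4 groups, sex and 5 surrogate variables (estimated axes of unexplained variation), and a gene was called at FDR under 0.4, the study's threshold over 7 contrasts together. No member was called for size (0 of 8 loci, against 0.478% of all genes tested), for diet (0 of 8, against 0.159%) or for their interaction (0 of 8, against 0.0490%). At an unadjusted p under 0.05 the counts were also 0 of 8, where 10.6%, 7.09% and 4.01% of all genes passed. DESeq2 and limma voom with the same terms also called 0 of 8 in each.

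The log2 fold changes of the 8 loci ran from -0.22 to 0.09 for size (SGA minus AGA), with standard errors of 0.08 to 0.15, and 2 loci were higher and 6 lower. The median was -0.08, against -0.002 for all genes. With litter as a block the tally turned, to 5 higher and 3 lower with a median of 0.02. For diet (HF minus CON) they ran from -0.27 in NTRK2 to 0.07, with a median of 0.01. The smallest FDR of a member was 0.779 for size, 0.775 for diet and 0.788 for the interaction. For BDNF the 95% interval of the size effect was -0.18 to 0.16, and for NTRK3 it was -0.07 to 0.25. For NTRK2 it was -0.30 to 0.33, so changes of that size in either direction lay within the interval.

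The 4 pairwise comparisons called 0 of 8 loci as well. The shares of all genes called were 0.129% for SGA against AGA on CON, 0.288% for SGA against AGA on HF, 0.0674% for HF against CON in AGA and 0.0919% for HF against CON in SGA. At an unadjusted p under 0.05 no member passed in SGA against AGA on CON or in either diet comparison, against 6.59%, 6.09% and 5.16% of all genes. On HF, SORT1 alone had an unadjusted p under 0.05 (1 of 8, against 8.02% of all genes), with a log2 fold change of -0.24 ± 0.11 (SE, edgeR adjusted p = 0.698). Its value did not hold its sign, at 0.06 ± 0.19 in the fit blocked by litter, and the SGA piglet was higher in 4 of 6 HF litters.

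GFRA1 had the lowest value of the members on HF, -0.28 ± 0.14 on the log2 scale (edgeR adjusted p = 0.745). With litter as a block it was -0.35 ± 0.10 and passed the threshold, at an adjusted p of 0.369. This was the 1 call among 8 loci where 0.888% of all genes were called. The adjustment in the block covered only its own contrasts (size, interaction and size on each formula), so the adjusted p values of the 2 fits are not alike. The block called 0 of 8 for size (2.57% of all genes), for the interaction (0.276%) and on CON (1.26%). At an unadjusted p under 0.05 it gave 1 of 8 in each of size, interaction and HF (GFRA1) and on CON (GFRA2 locus 102166950, 0.34 ± 0.16), against 12.4%, 3.73%, 8.13% and 8.64% of all genes. In the 6 HF litters the SGA piglet of litter 1 was at 29.9 CPM against 29.4 in its littermate. The SGA piglet was lower in the other 5, most of all in litter 3 with 24.6 against 47.5 CPM, then 36.3 against 48.3 in litter 11 and 29.0 against 37.8 in litter 7. The mean littermate difference on HF was -0.35 ± 0.33 (SD, n = 6 litters, two-sided exact sign-flip p = 0.0625, where the smallest possible is 0.03125). On CON it was -0.03 ± 0.19 (exact p = 0.688), and the SGA piglet was higher in 2 of 6 litters.

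Leaving out each of the 12 litters in turn, the adjusted p stayed under 0.4 in 5 cases and not in 7, and ranged from 0.308 to 0.582. The highest was without litter 3, where the log2 fold change on HF was -0.24. In the other 6 lost calls the fold was -0.38 to -0.34, about as large as with all litters. Over all 12 litters the GFRA1 difference was -0.19 ± 0.31 (SD), with the SGA piglet higher in 3 litters (two-sided exact sign-flip p = 0.0381, adjusted p = 0.359). This was the 1 of 8 loci with an unadjusted p under 0.05 or an adjusted p under 0.4, and 12.6% and 12.7% of all genes passed these levels, so the share among the members was near the background. The difference between the diets was -0.32 (exact permutation p = 0.0498, adjusted p = 0.989, where 4.36% of all genes had an unadjusted p under 0.05).

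GFRA1 was set beside the oligodendrocyte markers. The summed level of 6 of 6 markers, among them MBP and MOBP, which encode myelin components, was 17725 to 23215 CPM in AGA CON, 13626 to 24963 in AGA HF, 12377 to 19009 in SGA CON and 11459 to 22508 in SGA HF. It was lower in the SGA piglet in 6 of 6 CON litters and 5 of 6 HF litters. The exception was litter 1, with 16926 CPM in the SGA and 13626 in the AGA piglet. This tally was not particular to the oligodendrocyte sum. The sum of oligodendrocyte progenitor markers was also lower in the SGA piglet in 6 of 6 CON and 5 of 6 HF litters. The astrocyte sum was lower in 6 of 6 CON and 1 of 6 HF litters, and the neuronal sum in 5 of 12 litters. GFRA1 was higher in the SGA piglet in 2 of 6 CON litters and in 1 of 6 HF litters, also litter 1. The median oligodendrocyte sum was 21100 CPM in AGA CON, 21837 in AGA HF, 16005 in SGA CON and 17365 in SGA HF. None of the 6 oligodendrocyte markers was called for size by edgeR (1 of 6 with an unadjusted p under 0.05). Across the 24 libraries, after removal of group means, GFRA1 and this sum had a Pearson's r of 0.727 (Spearman's rho 0.563), at 0.572 within cohort 1, 0.807 within cohort 2 and 0.596 without the 2 libraries farthest out in GFRA1. Of the cell type marker sums, this one had the highest r with GFRA1, with the progenitor sum next at 0.301. These values come from the same libraries, and the part of the markers in the GFRA1 difference was not tested.

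For the other members, the littermate differences scattered on both sides of 0. The mean SGA minus AGA difference in log2 CPM (SD, n = 12 litters) was 0.01 ± 0.42 for BDNF, 0.02 ± 0.46 for NTF3, 0.11 ± 1.07 for NTRK2, 0.14 ± 0.43 for NTRK3 and -0.01 ± 0.56 for SORT1. For GFRA2 it was 0.04 ± 0.58 at 100157850 and 0.13 ± 0.47 at 102166950. The SGA piglet was higher in 4 to 7 of 12 litters, and the exact sign-flip p ranged from 0.292 to 0.981. By litter means, the HF minus CON differences of the 8 loci were -0.06 to 0.07. The exact permutation p was 0.584 to 0.981 (0 of 8 under 0.05, against 4.10% of all genes). The edgeR test on litter sums also gave 0 of 8 at an adjusted p under 0.4, where 1 of 16326 genes passed. At an unadjusted p under 0.05 it gave 0 of 8 as well (3.98% of all genes).

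**Figure D3:**
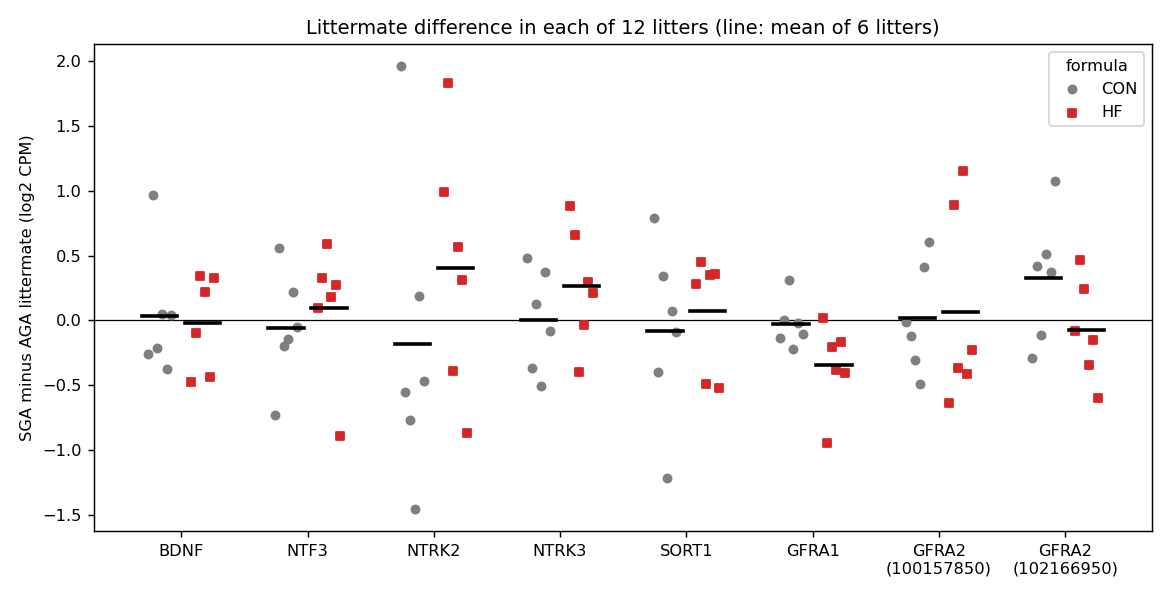
SGA minus AGA difference in log2 CPM in each of the 12 litters for the 8 tested loci, with circles for CON and squares for HF litters and a line at the mean of 6. GFRA1 on HF averages -0.35 with 1 litter above 0, and NTRK2 spreads widest on both formulas.

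The Trk receptors had lower mean levels in cohort 2, although with the filter on low counts neither was called. Per piglet, NTRK3 was read at 33.8 ± 7.34 CPM in cohort 1 and 26.0 ± 3.83 CPM in cohort 2 (SD, n = 12), and NTRK2 at 13.4 ± 6.38 and 8.05 ± 2.49 CPM. By litter, all 6 NTRK3 means of cohort 2 (4.51 to 4.87 log2 CPM) lay below all 6 of cohort 1 (4.93 to 5.21). The difference was -0.36 (two-sided exact permutation p = 0.00216, the smallest possible, adjusted p = 0.197). Among all genes, 0.472% had every cohort 2 litter below every cohort 1 litter. For NTRK2 the difference was -0.60 (exact permutation p = 0.0303), with overlap of the litters, and 12.5% of all genes had an exact p under 0.05.

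On counts summed per litter, with diet and sex in the model, edgeR gave NTRK3 a log2 difference of -0.34 ± 0.08 (SE, adjusted p = 0.108) and NTRK2 one of -0.69 ± 0.19 (adjusted p = 0.158). At the adjusted p threshold of 0.05 used for cohort, 0 of 8 loci were called, against 0.447% of all genes. Without the filter on low counts both passed, with adjusted p of 0.0181 for NTRK3 and 2.97e-05 for NTRK2. At an unadjusted p under 0.05 there were 2 of 8 loci, against 11.2% of all genes. None of the other 6 loci had an adjusted p below 0.678.

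The NTRK3 cohort difference was -0.36 among CON litters, -0.35 among HF litters, -0.21 among male litters and -0.43 among female litters, where the absence of overlap over all litters fixes the sign. Cohort 1 held 4 male and 2 female litters, and cohort 2 held 2 male and 4 female litters. For NTRK2 the values were -0.61, -0.59, -0.50 and -0.55. Cohort covers everything that differed between the 2 sets of litters, and these cannot be told apart. For sex, 0 of 8 loci were called on the litter sums by edgeR (0.104% of all genes), with 0 of 8 at an unadjusted p under 0.05 (3.65%), and 0 of 8 by the exact test (5.08%).

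**Figure D4:**
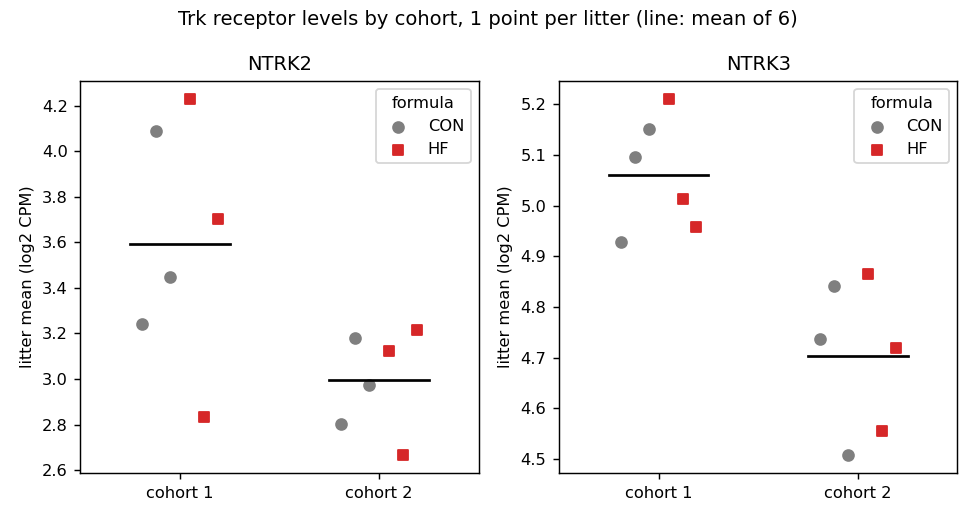
Litter means of NTRK2 and NTRK3 in log2 CPM by cohort, 1 point per litter, circles for CON and squares for HF, with a line at the mean of 6 litters. All 6 NTRK3 means of cohort 2 lie below those of cohort 1, and the NTRK2 means overlap.

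The members fell into sets that varied together from piglet to piglet. The correlations below are over the 24 libraries on log2 CPM minus the group mean, and are descriptions of points that share litters, cohorts and library preparation. NTRK2 and NTRK3 had a Pearson's r of 0.734, at 0.677 within cohort 1 and 0.568 within cohort 2. NTRK2 and SORT1 also had 0.734 (0.787 and 0.948 within the cohorts), and NTRK3 and SORT1 had 0.619 (0.921 and 0.581). Single libraries departed from this, as AGA HF replicate 6 had the highest SORT1 (38.6 CPM) with NTRK3 at 24.2 CPM, below its group mean of 27.0.

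These receptors followed the leading axis of variation of the whole transcriptome. The first principal component held 13.6% of the variance, and NTRK3 had an r of 0.882 with it, a size matched or passed by 0.0919% of all genes tested. NTRK2 had 0.767 (1.98% of genes) and SORT1 0.629 (9.34%), where the median size over all genes was 0.283. The component itself had medians of 14.4 in cohort 1 and -9.46 in cohort 2. Within cohorts the r of NTRK3 was 0.746 and 0.887. The paper gives RNA quality only as an average over samples, which it relates to pre-spliced RNA. The part of RNA quality in this axis and in these receptor values was not tested.

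BDNF varied with the neuronal markers and against SORT1 and NTRK3. Its r was 0.758 with the sum of the 6 neuronal markers (SNAP25, SYT1, NEFL, SLC17A7, GAD1, GAD2), at 0.855 and 0.832 within the cohorts. Without AGA CON replicate 2 (cohort 1) and AGA HF replicate 4 (cohort 2), the libraries with the lowest sums, it was 0.448 over both cohorts. The values within the cohorts include these libraries. BDNF had -0.486 with SORT1 and -0.411 with NTRK3. Its r of 0.464 with NTF3 fell to 0.122 without those 2 libraries. In bulk tissue fewer cells of a type and less RNA per cell cannot be told apart, and the part of neuronal content in the BDNF values was not tested.

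NTF3 had an r of 0.521 with the neuronal marker sum (Spearman's rho 0.300), at 0.800 within cohort 1 and 0.347 within cohort 2. NTRK3 had -0.517 with this sum (-0.488 and -0.651 within the cohorts) and NTRK2 -0.416 (-0.468 and -0.196). The GFRA2 locus 102166950 had 0.655 with the sum of 5 meningeal fibroblast markers (0.557 without its 2 most distant libraries, 0.269 within cohort 1 and 0.631 within cohort 2), whereas 100157850 had 0.070. The GFRA2 loci had an r of 0.161 with each other, a weak relation between the 2 annotated copies.

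**Figure D5:**
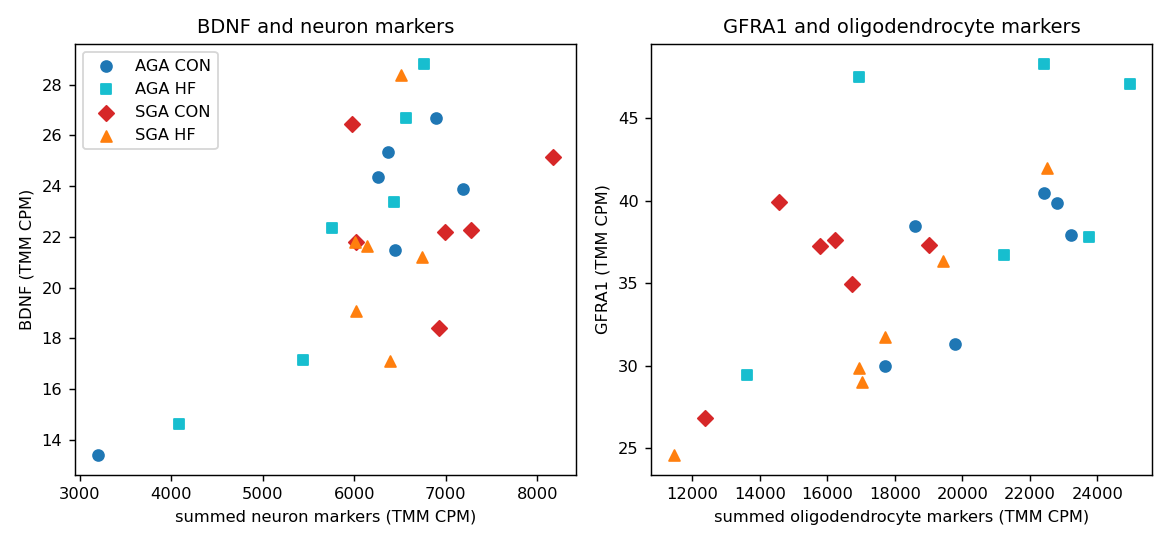
BDNF against the summed neuronal markers and GFRA1 against the summed oligodendrocyte markers, both in TMM CPM, 1 point per library with 4 symbols for the groups. AGA CON replicate 2 and AGA HF replicate 4 lie at the lower left for BDNF, and GFRA1 tends to be higher where the oligodendrocyte sum is higher, with scatter within each group.

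The genes most alike to each member, among 9385 genes with a symbol and at least 5 CPM, differed between members. For BDNF they were ZC3H15 (r 0.903), CHGB (0.885), which encodes a granin of dense-core vesicles, and CFAP36 (0.879). For NTRK2 they were ABAT (0.896), the GABA-degrading transaminase, ZMYM2 (0.890) and MLXIP (0.888). For NTRK3 they were ZC3H11A (0.895), CHD2 (0.882), a chromatin remodeler, and ABLIM1 (0.853). For SORT1 they were SYT11 (0.907), a synaptotagmin, and SULF2 (0.895), a heparan sulfate sulfatase.

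The nearest genes of the other members were less close. NTF3 was nearest to MCTP1 (0.773), GLRA2 (0.768), a glycine receptor subunit, and SSX2IP (0.762). GFRA1 was nearest to CLCA2 (0.816), FNTA (0.810) and AGPAT2 (0.793). The GFRA2 locus 102166950 was nearest to WNT4 (0.784), TP53I11 (0.781) and EBF4 (0.769), and 100157850 to MRAP2 (0.733), PCLO (0.714), a presynaptic scaffold protein, and CDKL2 (0.713).

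NTF4 and the GDNF-family ligands were low. NTF4, the other TrkB ligand, had 1.98 ± 0.808 CPM (SD, n = 24), and the GDNF-family ligands had 0.526 CPM for GDNF, 0.279 for NRTN, 0.102 for ARTN and 1.07 for PSPN. GDNF, NRTN and ARTN did not pass the filter. RET, the kinase partner of GFRA1 and GFRA2, was read at 15.2 ± 4.07 CPM.

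Of the sortilin family, SORL1 had 13.9 ± 3.06 CPM, SORCS1 8.88 ± 2.29, SORCS3 4.81 ± 1.59 and SORCS2 4.16 ± 1.24. Per kb, SORT1 at 13.6 lay above SORCS2 at 2.55, SORL1 at 2.53, SORCS3 at 1.43 and SORCS1 at 1.22.

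The wider pathway was a list of 117 genes of ligands, receptors, precursor processing, Trk adaptors, p75NTR partners, RAS-ERK and PI3K-AKT kinases, regulators of BDNF transcription and BDNF-responsive genes. Of these, 111 had a locus and 100 were tested. By edgeR, 0 of 100 were called in either direction in any of the 7 contrasts. For size, 10 were higher and 2 lower at an unadjusted p under 0.05 (12% of the list, against 10.6% of all genes), and the median log2 fold change was 0.03, against -0.002 for all genes. For diet 3 were higher and 4 lower (7%, against 7.09%), and for the interaction 1 was higher and 2 lower (3%, against 4.01%). These shares were near the background.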

How the data were processed

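Hippocampal RNA of 24 piglets was measured by stranded poly(A) RNA sequencing, single-end. The authors trimmed reads with Trimmomatic 0.33, aligned them with STAR 2.5.2a to Sscrofa10.2 and counted reads on exons per gene with featureCounts (Subread 1.5.0), and they deposited whole-number counts without normalization. Entries without a gene identifier (0.613 to 1.62% of reads) were left out. Symbols came from a Sscrofa11.1 gene table matched by identifier (23036 of 38882 matched, 15993 with a symbol).

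Groups, litters, cohort and sex were taken from the labels and the study's design. The label-given litters were used as pairs (mean correlation of littermates' deviations 0.154, over 0.1 in 9 of 12 pairs). Genes that reached 1 CPM in 3 or more libraries were tested in R 4.3.3 with edgeR 4.0.16 (TMM, quasi-likelihood test) on group, sex and 5 surrogate variables (sva 3.50.0 on log2 CPM, prior count 2). Benjamini-Hochberg adjustment covered all genes and 7 contrasts in this fit, with the study's threshold of 0.4. In the litter block it covered all genes and only the contrasts of size, interaction and size on each formula. Litter as a block, counts summed per litter (cohort and sex, threshold 0.05) and two-sided exact tests over litters (4096 sign flips, 924 reassignments) were run on all genes. The edgeR intervals of 95% use the fit's own degrees of freedom. Alternatives used limma 3.58.1 and DESeq2 1.42.0. The edgeR fit with sex alone, the litter block, the litter sums and the exact tests were tested on simulated data. These data held no litter or cohort effects, and the fit with surrogate variables was not tested on them. At FDR under 0.4 the fit with sex alone recovered 52% of simulated 1.25-fold and 94% of 2-fold size changes.

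All members, and by level the other ligands, RET and the sortilin family, were named, with any listed gene under the FDR threshold and the 3 genes most correlated with each member. Some genes that this rule names are not reported here. Members and lists were chosen with earlier results of these data known. Sequences were not used here. SGA HF replicate 4 and AGA CON replicate 2 were each left out as an alternative chosen after seeing the data.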

Additional observations from a re-analysis of the deposited data

Results flagged for a closer look

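In 32 combinations of locus and group (n = 6), 3 held a library that stood apart from the other 5 by Dixon's criterion, where chance gives about 1 in 20. NTRK2 in SGA HF replicate 1 was at 26.2 CPM, with the next highest library of the group at 13.2 CPM. The GFRA2 locus 100157850 in SGA HF replicate 2 was at 9.99 CPM, with the next at 7.35 CPM. The GFRA2 locus 102166950 in SGA CON replicate 6 was at 37.1 CPM, with the next at 22.3 CPM. By edgeR and by the exact test over litters, no member had a size effect that differed between formulas after adjustment (GFRA1, exact permutation p = 0.0498, adjusted p = 0.989).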

How the results depend on the processing

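The counts of 0 members called for size, diet and the interaction were 0 under every alternative run, namely limma voom, DESeq2, RLE size factors, no filter, 1 CPM in 6 libraries, sex alone, sex and cohort, 2 surrogate variables, adjustment within a contrast, each cohort alone, the replicate block (for diet, litter sums), TMM factors set before the filter, and without AGA CON replicate 2 or SGA HF replicate 4 (the last 3 chosen after seeing the data). Over all genes the calls depended far more on the choice, from 78 for size to 0 in each cohort alone, 13 with sex alone, 43 with the filter in 6 libraries, 50 without SGA HF replicate 4, 124 without the filter, 143 with the earlier TMM factors, 174 with 2 surrogate variables, 209 by DESeq2, 382 without AGA CON replicate 2, 420 with the replicate block and 1200 adjusted within the contrast. For diet the 26 calls ranged from 0 to 416 and for the interaction the 8 ranged from 0 to 86. Signs were less stable. Over 15 alternatives 6 of 8 loci changed sign for size, 7 for diet and 6 for the interaction, and NTRK3 and GFRA1 kept theirs for size and the interaction. The replicate block by litter, adjusted over its own contrasts alone, moved the count of pairwise calls from 0 to 1 (GFRA1 on HF, -0.35), and changed no other call. Without each litter in turn the blocked GFRA1 value was -0.42 to -0.24. GFRA1 on HF was below 0 in 15 of 15 alternatives (-0.39 to -0.26). Adjustment within a contrast leaves the value unchanged by design, and all alternatives reuse the same libraries or part of them. SORT1 on HF turned positive with sex alone (0.0371), sex and cohort (0.0365), cohort 1 alone (0.0728) and the replicate block (0.0634), and the cause was not tested. With plain library totals the BDNF littermate difference was -0.0072 and the number of members with a size difference between diets at an exact p under 0.05 went from 1 to 0 (GFRA1, -0.30). Without the filter, 2 members were called for cohort (NTRK2 -0.68, NTRK3 -0.33), and the cause was not tested. Without the filter NGFR was also fitted, and was not called in any contrast (smallest adjusted p 0.738). Depth limits NGFR, NRTN and ARTN, which lie near 3 counts.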
